A study of Homo sapiens with 4 samples.

Results

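The genes described here are those for the enzymes that build, lengthen and desaturate fatty acids, with 1 transcription factor that drives them: ACSS2, ACLY, ACACA, FASN, SCD, ELOVL5, ELOVL6, FADS1, FADS2 and SREBF1. They were taken by symbol from a table of 61267 genes; all 10 were present, and all 10 were among the 18368 genes that passed the filter on low counts. RNA had been sequenced from SU-DHL-2, an established human diffuse large B-cell lymphoma line labelled wild type and grown in medium with 15% serum. One group of 2 libraries came from cells given 10 µM Spautin-1 for 36 h, a compound known to block the deubiquitinases USP10 and USP13, and the other 2 libraries came from cells given solvent (vehicle). The series title names USP13, RAN and ferroptosis, a form of cell death driven by peroxidation of membrane lipids. A single cell line was used, and nothing states that the replicates were separate cultures, so p-values reflect only how these 4 samples vary, and that variation could be technical.

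Cells make fatty acids from acetyl-CoA, which ACLY releases from citrate and ACSS2 makes from acetate. ACACA carboxylates it to malonyl-CoA, FASN assembles palmitate, and the ELOVL and FADS enzymes and SCD lengthen the chains and insert double bonds. SREBF1 encodes SREBP-1, a membrane-bound factor that is escorted by SCAP, cut by proteases in the Golgi and retained in the endoplasmic reticulum by INSIG proteins; its released part activates most of these genes. Chain unsaturation is known to set how readily membranes are peroxidised.

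Libraries held between 34115420 and 38362526 counts. Single low counts were mostly even: among genes with 1 to 20 counts, 74.3% to 76.8% had an even value, against 56.6% to 58.6% among genes with higher counts of up to 1000. Markers of the B lineage were present, and 7 of 13 tested were called higher after Spautin-1, against 11.5% of all genes tested. None was called lower (1 at an unadjusted p under 0.05). Not all went up: CD79B had 480 and 441 counts after Spautin-1 against 588 and 662 in vehicle, and BLK 148 and 162 against 194 and 221. The list summed to 1617 and 1560.5 CPM in Spautin-1 libraries, against 1203 and 1159 CPM in vehicle libraries (CPM, counts scaled to a common library total). Whether that rise bears on the lipid genes was not tested. T and NK markers summed to 1.148 to 1.32 CPM after Spautin-1 and 1.67 to 1.80 CPM in vehicle. Myeloid markers summed to 1.41 to 1.43 CPM after Spautin-1 and 1.72 to 2.02 CPM in vehicle, and stromal and endothelial markers to 0.802 to 1.51 CPM after Spautin-1 and 0.762 to 0.886 CPM in vehicle. COL3A1, CDH5, GNLY and ADIPOQ were at 0 in all 4 libraries, and CD3E and CD14 had at most 8 counts in any. A list of epithelial, liver and fat markers reached 51.9 to 57.3 CPM after Spautin-1 and 49.1 to 55.1 CPM in vehicle, nearly all of it EPCAM.

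After Spautin-1, 4 of the 10 genes rose and 1 fell. ACSS2 rose 8.05-fold, ACLY, ELOVL5 and FADS1 rose between 1.32-fold and 1.38-fold, and SREBF1 fell 1.66-fold; ACACA, FASN, SCD, ELOVL6 and FADS2 did not pass the test (edgeR quasi-likelihood test, two-sided, Benjamini-Hochberg adjusted p under 0.05 over all genes tested). Of all genes tested, 11.5% were called higher and 10.5% lower, 22.0% in all. The median log2 fold change was 0.12 over the 10 genes and -0.01 over all genes tested. Their summed level was 1426 and 1407 CPM in Spautin-1 libraries, against 1210.5 and 1202 CPM in vehicle libraries (here and below CPM are scaled by TMM, which corrects library size for composition). The groups did not overlap for 7 genes, 5 of them higher and 2 lower after Spautin-1, where 30.8% and 30.6% of all tested genes were separated in these directions. With 2 libraries against 2, an exact permutation test of a single gene cannot go below p = 0.333, so each call rests on the spread shared across genes. In such bulk samples a change in the cells present and a change in RNA per cell cannot be told apart.

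**Figure D1:**
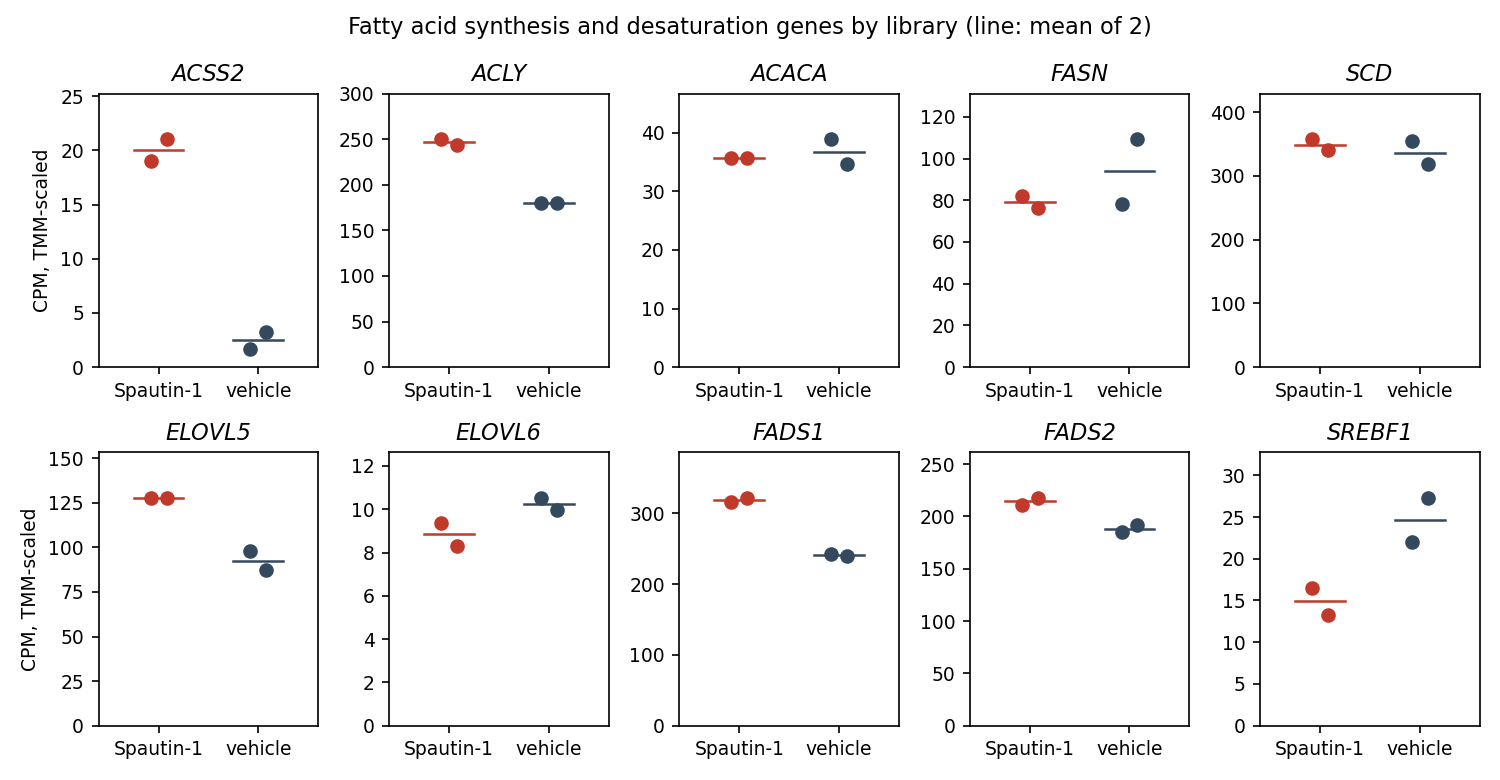
Level of each of the 10 genes in CPM (TMM-scaled; vertical axes start at 0) in each Spautin-1 and vehicle library, with a line at the mean of 2. ACSS2 stands at 19.0 and 21.0 CPM after Spautin-1 against 1.67 and 3.26 CPM in vehicle, while the groups overlap for ACACA, FASN and SCD.

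**Figure D2:**
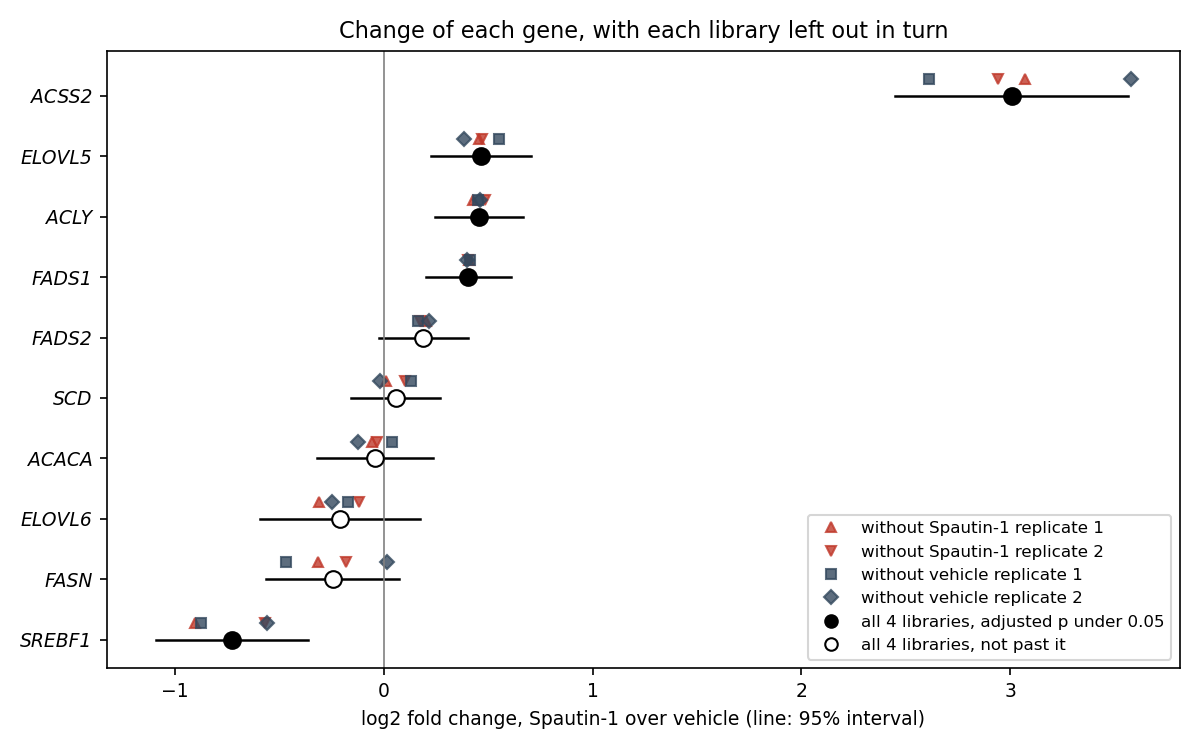
Log2 fold change of Spautin-1 over vehicle for the 10 genes, with 95% intervals from the edgeR standard error (filled circles passed adjusted p under 0.05) and, above each, the value with each library left out in turn. ACSS2 lies at 3.01 and SREBF1 at -0.73; FASN spans -0.47 to 0.02 depending on which vehicle library is left out.

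Promoter windows of the genes that were called are shown because they are the places where factors shared by lipid genes are known to bind. RefSeq starts (GRCh38.p14) were given for 9 of the 10 genes, 14 windows in all, FASN having none in the table used. Each window runs over the 250 bases before a start, 5′ to 3′ on the gene's strand, with matches to 4 motifs on either strand in capitals: the sterol regulatory element TCACNCCAC, the E-box CACGTG, the CCAAT box, read as ATTGG on the other strand, and the GC box GGGCGG, read as CCGCCC there. Matches may overlap one another. The second ACLY window (chr17:41918952-41919201) is not printed. It shares 179 of its 250 bases with the first and holds 2 CCAAT boxes and 4 GC boxes.
ACSS2, chr20:34874739-34874988, plus strand: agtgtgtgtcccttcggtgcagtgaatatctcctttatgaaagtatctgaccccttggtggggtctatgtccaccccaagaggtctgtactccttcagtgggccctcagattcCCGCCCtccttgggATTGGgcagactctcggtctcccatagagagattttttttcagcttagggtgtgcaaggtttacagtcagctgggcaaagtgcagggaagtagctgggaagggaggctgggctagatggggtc
ACSS2, chr20:34876362-34876611, plus strand: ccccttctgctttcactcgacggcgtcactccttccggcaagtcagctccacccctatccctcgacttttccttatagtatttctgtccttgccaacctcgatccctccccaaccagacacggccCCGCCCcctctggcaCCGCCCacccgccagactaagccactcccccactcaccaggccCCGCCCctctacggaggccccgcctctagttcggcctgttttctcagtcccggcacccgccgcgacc
ACLY, chr17:41919023-41919272, minus strand: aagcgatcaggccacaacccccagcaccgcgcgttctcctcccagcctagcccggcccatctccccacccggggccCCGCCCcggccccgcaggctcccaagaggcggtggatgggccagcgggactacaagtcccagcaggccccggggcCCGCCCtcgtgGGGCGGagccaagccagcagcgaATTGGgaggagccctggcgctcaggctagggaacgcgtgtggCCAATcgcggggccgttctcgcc
ELOVL5, chr6:53348951-53349200, minus strand: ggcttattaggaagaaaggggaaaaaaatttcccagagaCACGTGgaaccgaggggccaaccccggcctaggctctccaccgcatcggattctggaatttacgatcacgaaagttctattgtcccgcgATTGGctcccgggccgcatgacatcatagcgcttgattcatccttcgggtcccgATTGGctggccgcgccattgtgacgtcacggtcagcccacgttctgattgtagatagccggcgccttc
FADS1, chr11:61817004-61817253, minus strand: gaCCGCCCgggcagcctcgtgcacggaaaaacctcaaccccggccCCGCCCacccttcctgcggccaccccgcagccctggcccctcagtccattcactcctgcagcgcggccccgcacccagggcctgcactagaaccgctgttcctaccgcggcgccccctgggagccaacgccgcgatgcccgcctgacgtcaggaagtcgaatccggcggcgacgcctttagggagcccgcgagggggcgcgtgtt
SREBF1, chr17:17836987-17837236, minus strand: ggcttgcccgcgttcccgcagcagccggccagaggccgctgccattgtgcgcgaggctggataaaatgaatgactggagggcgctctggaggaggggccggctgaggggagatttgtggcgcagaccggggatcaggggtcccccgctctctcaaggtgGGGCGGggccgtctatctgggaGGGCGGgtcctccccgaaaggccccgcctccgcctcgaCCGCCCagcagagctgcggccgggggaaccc

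The 14 windows are not all separate: the 2 of ACLY share 179 bases and the 2 of FADS2 share 49, so some matches are counted in both. The CCAAT box lay in 7 of the 14 windows, and in 32.0% of 35116 RefSeq windows of the same length. The GC box lay in 11 of 14, against 42.6% of all windows. In 21 windows of the sterol synthesis and uptake genes, the CCAAT box lay in 16 and the GC box in 19. The E-box was found in 1 window, that of ELOVL5, where 6.34% of all windows hold it. The sterol regulatory element as spelled was in none of the 14, in none of the 21 windows of the sterol genes, and in 0.883% of all windows. GC boxes were the only matches in the windows of SREBF1, which fell, and of FADS1, which rose, and in the second ACSS2 window. The same held for uncalled genes, in the first ACACA window, the ELOVL6 window and the second FADS2 window. These matches describe letters in the windows and are no evidence of binding.

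Among the suppliers of acetyl-CoA, ACSS2 (chromosome 20, 34872146 to 34927962, plus strand, GRCh38), the nuclear and cytosolic acetyl-CoA synthetase, changed most. It was at 19.0 and 21.0 CPM in Spautin-1 libraries, from 712 and 729 counts, against 1.67 and 3.26 CPM in vehicle libraries, from 58 and 126 counts. The groups were far apart, and the vehicle libraries differed 1.95-fold from each other. Of the 9942 genes averaging 5 CPM or more over the 4 libraries, 0.634% differed that much between the vehicle libraries. ACSS2 reaches that average only through its Spautin-1 level, so the share does not describe genes as low as ACSS2 in vehicle. ACSS2 averaged 20.01 ± 1.46 CPM after Spautin-1 and 2.47 ± 1.13 CPM in vehicle (SD, n = 2 each). Its difference was 3.01 ± 0.26 in log2 units (SE; edgeR adjusted p = 1.16e-05). By log2 fold change it stood at place 93 of 18368 genes. The value was 2.61 without vehicle replicate 1 and 3.58 without vehicle replicate 2.

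ACLY (chromosome 17, 41866917 to 41930542, minus strand), which splits citrate in the cytosol, stood at 250.1 and 244 CPM in Spautin-1 libraries, against 179.5 and 180.5 CPM in vehicle libraries. Libraries of a group lay within a few CPM of each other, far less than the gap between groups. ACLY rose 1.37-fold, or by 0.46 ± 0.10 in log2 units (SE; edgeR adjusted p = 0.0059). The log2 fold change was 0.43 without Spautin-1 replicate 1 and 0.48 without Spautin-1 replicate 2. With a lone treated library left, neither fit called ACLY. Per exonic length, ACSS2 reached 7.53% and 8.56% of the ACLY level in Spautin-1 libraries, against 0.923% and 1.79% in vehicle libraries, so acetate-using synthetase mRNA remained the scarcer of the pair in all 4. An antisense gene of 156 exonic bases lies wholly within the ACLY exons and covers 3.0% of them. It was at 5.68 and 5.69 CPM after Spautin-1 and 3.20 and 3.93 CPM in vehicle. How far ACLY reads enter that value was not tested.

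Of 15 other genes that supply acetyl-CoA, malonyl-CoA or NADPH, 12 were tested, 1 rose and 1 fell. Over all genes tested, 11.5% were called higher and 10.5% lower. MID1IP1, which helps acetyl-CoA carboxylase polymerise, rose 1.499-fold to 53.6 and 49.2 CPM in Spautin-1 libraries, against 28.7 and 39.8 CPM in vehicle libraries (edgeR adjusted p = 0.0185). MLYCD, which breaks malonyl-CoA down again, fell 1.79-fold to 7.89 and 6.99 CPM, against 15.5 and 11.2 CPM in vehicle (edgeR adjusted p = 0.0101). A gene without a symbol shares 10.2% of the MLYCD exons on the same strand. That gene had 2273 and 2350 counts after Spautin-1 and 2739 and 2986 in vehicle. How far shared reads enter the MLYCD value was not tested. The citrate carrier SLC25A1, the mitochondrial synthetase ACSS1 and the NADPH enzymes PGD and IDH1 did not pass, with log2 fold changes of 0.52, -0.73, 0.16 and -0.36. Leaving out Spautin-1 replicate 1 ended the call of MID1IP1 (adjusted p = 0.118), and leaving out Spautin-1 replicate 2 that of MLYCD (adjusted p = 0.0789). With single libraries left out, 0 to 4 genes of this list were called higher and 0 to 3 lower, the most without vehicle replicate 1.

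The committed steps that follow gave no call. ACACA (chromosome 17, 37084992 to 37406836, minus strand), the carboxylase that makes malonyl-CoA, was at 35.7 and 35.6 CPM in Spautin-1 libraries, against 38.9 and 34.7 CPM in vehicle libraries. Its log2 fold change was -0.04 ± 0.13 (SE; edgeR adjusted p = 0.847), with a 95% interval from -0.32 to 0.23. The Spautin-1 values lay between those of vehicle, so the groups overlapped.

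FASN (chromosome 17, 82078338 to 82098294, minus strand), the multienzyme that builds palmitate, stood at 82.2 and 76.1 CPM in Spautin-1 libraries, against 78.3 and 109 CPM in vehicle libraries. Vehicle replicate 2 alone stood apart, and vehicle replicate 1 lay between the Spautin-1 libraries. The log2 fold change was -0.25 ± 0.15 (SE; edgeR adjusted p = 0.264), with a 95% interval from -0.57 to 0.07. It became -0.47 and was called lower without vehicle replicate 1 (adjusted p = 1.45e-05), and was 0.02 without vehicle replicate 2. The vehicle libraries differed 1.40-fold in FASN, and 9.92% of the 9942 genes averaging 5 CPM or more differed that much between them. FASN has the highest GC content of the 10 genes (65.3% in its longest GENCODE 29 transcript), and with an offset for GC content its value was -0.08.

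SCD (chromosome 10, 100347233 to 100364826, plus strand), which puts the first double bond into saturated chains, was the most abundant of the 10 per exonic length and did not pass the test. It was at 358 and 341 CPM in Spautin-1 libraries, against 354 and 318 CPM in vehicle libraries. The groups overlapped, the log2 fold change was 0.06 ± 0.10 (SE; edgeR adjusted p = 0.735), and its 95% interval ran from -0.16 to 0.27. ELOVL6 (chromosome 4, 110045846 to 110199199, minus strand), which extends palmitate to stearate, was at 9.38 and 8.31 CPM in Spautin-1 libraries, against 10.5 and 9.96 CPM in vehicle libraries. Both Spautin-1 libraries lay below both vehicle libraries, but the log2 fold change of -0.21 ± 0.18 did not pass (SE; edgeR adjusted p = 0.434; 95% interval -0.59 to 0.17).

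Among the 10, 3 genes serve to make long polyunsaturated chains, and 2 of these rose. Over all genes tested, 11.5% were called higher. ELOVL5 (chromosome 6, 53267398 to 53349179, minus strand), the elongase of polyunsaturated chains, stood at 128 CPM in each Spautin-1 library, against 98.1 and 87.1 CPM in vehicle libraries. It rose 1.38-fold, or by 0.46 ± 0.11 in log2 units (SE; edgeR adjusted p = 0.0107). Both treated libraries lay above both vehicle libraries, and the larger spread was in vehicle. Leaving out Spautin-1 replicate 1 or 2 ended the call (adjusted p = 0.112 and 0.113).

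FADS1 (chromosome 11, 61799627 to 61829318, minus strand), the desaturase whose products include arachidonic acid, was at 317 and 322 CPM in Spautin-1 libraries, against 243 and 239.9 CPM in vehicle libraries. It rose 1.32-fold, or by 0.40 ± 0.09 in log2 units (SE; edgeR adjusted p = 0.0094). Replicates differed by a few CPM and the groups were apart, but this call too was lost without Spautin-1 replicate 1 (adjusted p = 0.104) or replicate 2 (adjusted p = 0.128). FADS2 (chromosome 11, 61792980 to 61867354, plus strand), which acts first on linoleic and linolenic acid, was at 211 and 218 CPM in Spautin-1 libraries, against 185 and 191.5 CPM in vehicle libraries. Its groups were apart too, but the log2 fold change of 0.19 ± 0.10 missed the threshold (SE; edgeR adjusted p = 0.194; 95% interval -0.02 to 0.40). With the GC offset FADS2 was called, at 0.30 (edgeR adjusted p = 0.0272).

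The annotated span of FADS1 lies inside that of FADS2, on the opposite strand. The 2 genes share 490 exonic bases, 4.79% of the FADS1 exons. The kit was a stranded one, but no source used here says whether counting used the strand, so reads of the shared stretch may be split or lost. The FADS1 level per exonic length was 1.55 and 1.53 times that of FADS2 in Spautin-1 libraries, against 1.35 and 1.29 times in vehicle libraries, with no overlap of the groups. Of 6 tested neighbours at the locus, 1 rose and 1 fell, against 11.5% and 10.5% of all genes tested. Over the 17 alternatives other than leaving out a library, 0 to 2 were called higher and 1 lower. FEN1, a flap endonuclease of DNA replication that shares 49 exonic bases with FADS2 on the same strand, fell 1.75-fold to 110.3 and 115 CPM in Spautin-1 libraries, against 199 and 195 CPM in vehicle libraries (edgeR adjusted p = 0.000239). BEST1, known as a chloride channel of the retina, was called higher, at 473 and 482 CPM in Spautin-1 libraries, against 332 and 356 CPM in vehicle libraries (edgeR adjusted p = 0.00362), a call lost without Spautin-1 replicate 2 (adjusted p = 0.0504). It shares 1267 exonic bases with the ferritin gene FTH1, which was at 789.6 and 793 CPM after Spautin-1 and 563 and 813 CPM in vehicle; the part of FTH1 reads in BEST1 was not tested. FADS3, the third desaturase gene of the cluster, had a log2 fold change of 0.36 ± 0.18 and did not pass (SE; edgeR adjusted p = 0.17).

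**Figure D3:**
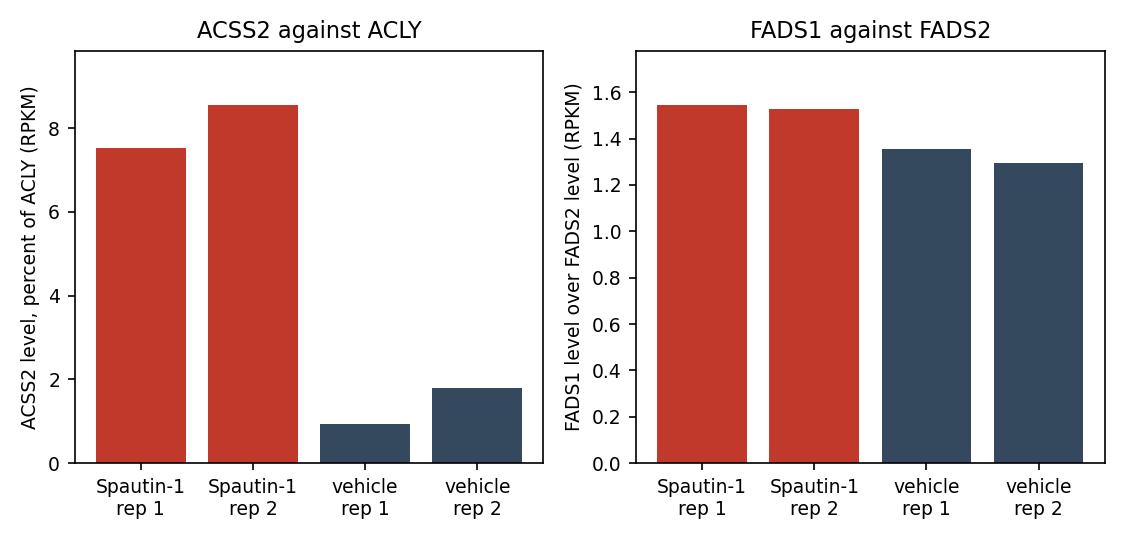
Ratios of levels per exonic length (RPKM) in each library, with bars from 0: ACSS2 as a percent of ACLY (left) and FADS1 over FADS2 (right). ACSS2 reaches 7.53% and 8.56% of ACLY after Spautin-1 against 0.923% and 1.79% in vehicle, and FADS1 over FADS2 is 1.55 and 1.53 against 1.35 and 1.29.

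None of 9 tested genes of elongation was called by edgeR in either direction, where 22.0% of all genes tested were called. At an unadjusted p under 0.05 and by the edgeR exact test 1 was higher, and none was called by DESeq2. Over the 17 alternatives other than leaving out a library, 0 or 1 was called higher and 0 or 1 lower. With vehicle replicate 1 left out, 1 was called higher and 1 lower, and with vehicle replicate 2 left out 1 was called lower. The reductase HSD17B12 had a log2 fold change of 0.41 ± 0.14 (SE; adjusted p = 0.0565; chosen after its value was seen). Of 8 tested genes of desaturation and its electron supply, none rose by edgeR, DESeq2 or at an unadjusted p under 0.05, and 2 fell. Among all genes tested, 10.5% were called lower. DEGS1, which desaturates ceramide precursors, fell 1.54-fold to 5.22 and 6.58 CPM in Spautin-1 libraries, against 9.07 and 9.08 CPM in vehicle libraries (edgeR adjusted p = 0.0417). CYB5B, a cytochrome of the outer mitochondrial membrane, fell 1.34-fold (edgeR adjusted p = 0.0297), and shares 24.1% of its exons with a non-coding gene on the same strand. Neither call held without Spautin-1 replicate 1 or without Spautin-1 replicate 2, and DEGS1 was not called by DESeq2 (adjusted p = 0.0515).

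SREBF1 (chromosome 17, 17810399 to 17837002, minus strand) went the other way from the enzymes that were called. It was at 16.5 and 13.3 CPM in Spautin-1 libraries, from 619 and 460 counts, against 21.97 and 27.3 CPM in vehicle libraries, from 763 and 1056 counts. The groups did not overlap, although replicates differed within both. SREBF1 averaged 14.9 ± 2.28 CPM after Spautin-1 and 24.6 ± 3.79 CPM in vehicle (SD, n = 2 each). Its difference was -0.73 ± 0.17 in log2 units (SE; edgeR adjusted p = 0.00927). Without Spautin-1 replicate 2 it was -0.57 and no longer called (adjusted p = 0.142), without Spautin-1 replicate 1 it was -0.91, and with the GC offset it was -0.58 and called. The gene shares 556 exonic bases, 6.75% of its exons, with RAI1 on the opposite strand. RAI1, a chromatin-associated regulator, was called lower as well, 2.04-fold, at 14.6 and 14.9 CPM in Spautin-1 libraries, against 27.4 and 32.6 CPM in vehicle libraries (edgeR adjusted p = 0.000556); how far shared reads enter either value was not tested. The counts are per gene, so the SREBP-1a and SREBP-1c transcripts cannot be told apart.

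Of 15 tested genes of SREBP processing and its regulators, 5 rose and 1 fell, against 11.5% and 10.5% of all genes tested. The median log2 fold change of the list was 0.27. INSIG1, which holds SCAP back in the endoplasmic reticulum and is itself an SREBP target, rose 2.19-fold to 100.2 and 111 CPM in Spautin-1 libraries, against 45.7 and 50.3 CPM in vehicle libraries (edgeR adjusted p = 5.71e-05). LPIN1, a phosphatidate phosphatase, rose 2.02-fold (edgeR adjusted p = 0.000363). MBTPS1, the protease that makes the first cut in SREBPs, fell 1.56-fold (edgeR adjusted p = 0.00732). It was at 27.8 and 24.2 CPM in Spautin-1 libraries, against 36.9 and 44.0 CPM in vehicle libraries. The log2 fold change of MBTPS1 was -0.64. Without Spautin-1 replicate 2, with a lone treated library left, it was -0.53 and not called. SREBF2, which encodes the sterol-directed SREBP-2, was at 32.4 and 32.2 CPM in Spautin-1 libraries, against 37.5 and 36.1 CPM in vehicle libraries. Its log2 fold change of -0.19 ± 0.12 did not pass (SE; edgeR adjusted p = 0.319), nor did that of SCAP, -0.25 ± 0.25 (SE; edgeR adjusted p = 0.517). With single libraries left out, 2 to 6 genes of the list were called higher and 0 to 2 lower; only 2 were higher without either Spautin-1 replicate 1 or Spautin-1 replicate 2.

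Of 15 tested lipogenic transcription factors and cofactors, none rose by edgeR or DESeq2 (2 at an unadjusted p under 0.05) and 2 fell. The share called lower was 10.5% over all genes tested. With single libraries left out, 0 to 3 were called higher, the most without vehicle replicate 2, and 1 to 3 lower; with the GC offset 2 were called higher. PPARGC1B, a coactivator of nuclear receptors and SREBPs, fell 2.03-fold to 10.2 and 10.4 CPM in Spautin-1 libraries, against 22.7 and 19.0 CPM in vehicle libraries (edgeR adjusted p = 0.000975). USF1, an E-box factor, fell 1.63-fold to 12.4 and 12.1 CPM, against 20.2 and 19.7 CPM in vehicle (edgeR adjusted p = 0.00597). The log2 fold change of USF1 was -0.70. Without Spautin-1 replicate 2, with a lone treated library left, it was -0.68 and not called. The NF-Y subunits NFYA, NFYB and NFYC, which bind the CCAAT box, had log2 fold changes of 0.20, 0.08 and 0.23 and did not pass. MLXIPL, the carbohydrate response factor, had 0 and 8 counts in Spautin-1 libraries and 0 in each vehicle library, which allows up to 3 counts in a library listed at 0 (counting error only).

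By level per exonic length (RPKM), the first 6 of the 10 genes stood in one order in both groups. After Spautin-1 the order was SCD at 66.5, ACLY at 47.4, ELOVL5 at 33.5, FADS1 at 31.2, FADS2 at 20.3, FASN at 8.49, ACSS2 at 3.81, ACACA at 2.74, SREBF1 at 1.81 and ELOVL6 at 1.22 RPKM, and no neighbours overlapped. In vehicle the first 6 genes stood in the same order, from SCD at 64.0 to FASN at 10.1 RPKM, then SREBF1 at 2.99, ACACA at 2.82, ELOVL6 at 1.41 and ACSS2 at 0.470 RPKM. There ELOVL5 and FADS1 overlapped, as did SREBF1 and ACACA. ACSS2 was the seventh after Spautin-1 and the last in vehicle, and SREBF1 was the ninth after Spautin-1 and the seventh in vehicle.

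The genes for sterol synthesis and uptake that SREBP-2 is known to drive are the nearest pathway: 13 of 21 tested rose and none fell by edgeR or DESeq2 (1 at an unadjusted p under 0.05), with a median log2 fold change of 0.64. That list was already known to be higher in these libraries, so its count is a description. The share called higher was 11.5% over all genes tested. ACAT2, which makes acetoacetyl-CoA from the same acetyl-CoA pool, rose 3.52-fold to 208 and 221 CPM in Spautin-1 libraries, against 62.5 and 59.3 CPM in vehicle libraries, and HSD17B7 rose 2.84-fold (edgeR adjusted p = 8.9e-07 and 5.6e-05). TCP1 shares 17.2% of the ACAT2 exons on the opposite strand. With single libraries left out, 10 to 15 were called higher and 0 to 2 lower, the 2 without vehicle replicate 1.

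Downstream of synthesis, 3 of 11 tested genes of fatty acid activation rose and none fell by edgeR or DESeq2 (1 at an unadjusted p under 0.05 and by the edgeR exact test). Among all genes tested, 11.5% were called higher and 10.5% lower. ACSL3, which loads chains for membrane lipids and lipid droplets, rose 1.54-fold to 87.1 and 81.6 CPM in Spautin-1 libraries, against 58.0 and 51.4 CPM in vehicle libraries. ACSL4, which prefers polyunsaturated chains, rose 1.45-fold, and ACSL1 gave 1.36-fold (edgeR adjusted p = 0.00305, 0.0146 and 0.0349 for ACSL3, ACSL4 and ACSL1). ACSL3 and ACSL4 were not called without Spautin-1 replicate 1, nor ACSL4 without Spautin-1 replicate 2, and with single libraries left out between 0 and 3 of the list were called higher and 0 or 1 lower.

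Of 19 tested genes of glycerolipid assembly, 3 rose and 1 fell, against 11.5% and 10.5% of all genes tested. LPCAT4, a lysophospholipid acyltransferase, rose 3.57-fold to 39.4 and 38.1 CPM in Spautin-1 libraries, against 10.0 and 11.7 CPM in vehicle libraries (edgeR adjusted p = 7.57e-06). LPIN1, which is also counted in the list of SREBP regulators, stood at 54.7 and 47.6 CPM in Spautin-1 libraries. In vehicle libraries it was at 27.2 and 23.5 CPM. PLIN3, a lipid droplet coat protein, fell 1.40-fold (edgeR adjusted p = 0.0432), a call lost with the GC offset (adjusted p = 0.0552) and in 3 of the 4 fits that leave out a library, all but that without vehicle replicate 1. Each fit with a library left out also called 3 genes of this list higher, and 0 to 2 lower.

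**Figure D4:**
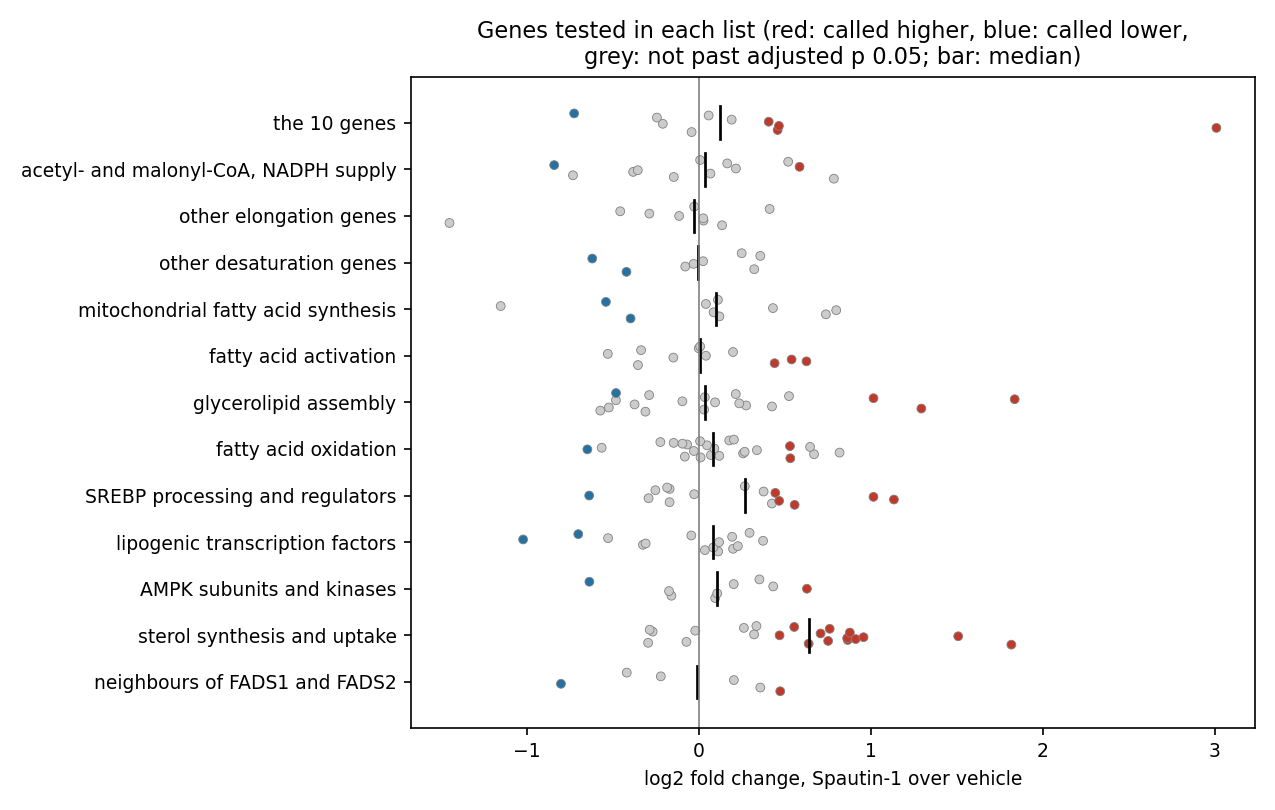
Log2 fold change of Spautin-1 over vehicle for each tested gene of the 10 and of 12 related lists (red called higher, blue called lower, grey not past adjusted p under 0.05, black bar the median). The sterol list has 13 of 21 genes called higher and a median of 0.64, the 10 genes a median of 0.12, and other elongation genes no call.

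The genes whose 4 values ran most like those of ACSS2, by Euclidean distance between mean-centred log2 CPM over the 4 libraries, were GADD45B, RGS2 and HSPA6, at distances of 0.325, 0.544 and 0.581, of 8694 candidates that code for protein and average 5 CPM or more. GADD45B, a stress-inducible protein, was at 16.3 and 19.8 CPM in Spautin-1 libraries, against 1.67 and 3.83 CPM in vehicle libraries, and so shared the higher value of vehicle replicate 2 with ACSS2. For SREBF1 the nearest were EEF2KMT, PDF and NRL, at 0.0463, 0.0571 and 0.0657. EEF2KMT, a methyltransferase of an elongation factor, was at 8.74 and 6.84 CPM in Spautin-1 libraries, against 11.3 and 14.6 CPM in vehicle libraries, with the lowest value in Spautin-1 replicate 2 and the highest in vehicle replicate 2 as for SREBF1. With 4 libraries these distances describe the libraries and give no test.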

How the data were processed

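The deposited table holds raw counts of reads per gene, which the authors made for each of 4 libraries, with exonic length and coordinates per the file headers. Per the submitters' processing notes, the tools were Trimmomatic 0.36, featureCounts, Subread 1.5.1 and edgeR 3.12.1, and the build was GRCh38; which aligner, annotation release, strand setting and handling of read pairs applied: not given in the sources used here. Most low counts were even, so pairs may have been counted as 2 reads and precision may be below what the totals imply.

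The software was edgeR 4.0.16 under R 4.3.3. Genes were kept by filterByExpr (minimum count 10, minimum total 15), scaled by TMM and tested two-sided by quasi-likelihood F tests; p-values were adjusted by Benjamini-Hochberg over 18368 genes (threshold 0.05). The design has 2 residual degrees of freedom. Standard errors follow from the F statistics. Log2 CPM used a prior count of 2; RPKM are TMM-scaled CPM per kilobase of exons. Biotypes and GC content came from GENCODE 29, matched for 57068 genes; 95.7% of tested genes had a GC value. The procedure was tested on simulated data in which a far smaller share of genes changed than was called here. That test therefore does not cover changes as widespread as these.

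The 10 genes, the 12 related lists and the tests were chosen with earlier results of these data known. Named are all 10 genes, their exonic neighbours, up to 2 called genes per list and direction by smallest p, the locus of FADS1, SREBF2, SCAP, INSIG1 and the nearest patterns; any other gene named was chosen after its values were seen. Alternatives were other scalings, filters and thresholds, DESeq2 1.42.0, limma-voom (limma 3.58.1), a replicate block, robust empirical Bayes, the edgeR exact test, GC and length offsets (loess, span 0.3), protein-coding genes alone and each library left out. Halving the counts was chosen after seeing the data. A count of 0 allows up to 3 counts.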

Additional observations from a re-analysis of the deposited data

How the results depend on the processing

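Across 17 alternatives other than leaving out a library, SREBF1 alone of the 10 genes was called lower each time, and 4 or 5 were called higher in all but the stricter thresholds. The fifth was FADS2, with the GC offset alone (0.30) or with the GC offset and replicate block. At adjusted p under 0.01, 1938 genes in all and 23 genes of the 12 lists were called, against 4045 and 40 at 0.05. Asking for a 1.5-fold change left 1 of the 10 called higher (ACSS2), 1 lower, and 25 genes of the lists. Deviations of same-numbered libraries from their group means correlated at 0.0835 over 14346 genes, and no source says that numbers pair the samples; a replicate block gave 5100 calls and changed no call among the 10 genes. Leaving out each library in turn gave between 1847 and 5766 calls over all genes, 1 to 4 of the 10 called higher, 0 to 2 lower, and 19 to 62 genes of the lists. The fewest calls came without Spautin-1 replicate 2 and the most without vehicle replicate 1; a lone library is then assumed to vary like the other group. Without either Spautin-1 library, ACLY, ELOVL5 and FADS1 were no longer called (adjusted p between 0.0677 and 0.128), while their log2 fold changes stayed between 0.40 and 0.48. Signs turned for 3 uncalled genes in these fits: ACACA ran from -0.12 to 0.039, FASN from -0.47 to 0.016 and SCD from -0.019 to 0.13. Counts halved gave 4 higher and 1 lower. The vehicle level of ACSS2 rests on 58 and 126 counts, the fewest of the 10 genes.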

Other observations

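Of 24 tested genes of fatty acid oxidation, 2 rose and 1 fell, against 11.5% and 10.5% of all genes tested. The median log2 fold change of the list was 0.08. With single libraries left out, 0 to 5 were called higher and 0 to 2 lower, the most without vehicle replicate 1 and the fewest without Spautin-1 replicate 2. ACAA1, the peroxisomal thiolase, rose 1.44-fold to 27.2 and 33.1 CPM in Spautin-1 libraries, against 21.3 and 20.4 CPM in vehicle libraries, and EHHADH, the peroxisomal bifunctional enzyme, rose 1.44-fold to 27.5 and 26.8 CPM, against 20.6 and 17.1 CPM in vehicle (edgeR adjusted p = 0.0214 and 0.0229). DLEC1 shares 19.7% of the ACAA1 exons on the opposite strand. DECR2, a peroxisomal reductase of unsaturated chains, fell 1.57-fold to 6.72 and 7.82 CPM, against 9.30 and 13.5 CPM in vehicle (edgeR adjusted p = 0.0443). NME4 shares 14.3% of the DECR2 exons on the same strand. Without Spautin-1 replicate 2, none of the 3 was called; EHHADH and DECR2 were not called without Spautin-1 replicate 1 either, nor DECR2 without vehicle replicate 2, with the GC offset or by limma-voom. Of genes for mitochondrial oxidation, ACADM and HADHA gave log2 fold changes of -0.08 and -0.23, while CPT1A gave 0.82. None of these passed (edgeR adjusted p = 0.653, 0.116 and 0.0889), and they were chosen after their values were seen.

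In the mitochondrial fatty acid synthesis pathway, which makes the precursor of lipoic acid, none of 10 tested genes rose by edgeR or DESeq2 (1 at an unadjusted p under 0.05 and by the edgeR exact test) and 2 fell. Among all genes tested, 10.5% were called lower. NDUFAB1, the acyl carrier protein, fell 1.46-fold to 30.6 and 29.5 CPM in Spautin-1 libraries, against 38.2 and 49.3 CPM in vehicle libraries (edgeR adjusted p = 0.0188). AASDHPPT, which arms carrier proteins and FASN with their prosthetic group, fell 1.32-fold (edgeR adjusted p = 0.0468). Both calls were lost without either Spautin-1 library, and with single libraries left out 0 or 1 gene of the list was called higher and 0 to 3 lower. Among 9 tested genes of AMPK, the kinase that inhibits ACACA, 1 rose and 1 fell, against 11.5% and 10.5% of all genes tested. PRKAB2 rose 1.54-fold and STK11, the upstream kinase LKB1, fell 1.56-fold to 41.4 and 44.1 CPM, against 57.5 and 75.6 CPM in vehicle (edgeR adjusted p = 0.0338 and 0.0076). PRKAB2 was not called without Spautin-1 replicate 1 or replicate 2; 0 to 2 genes of the list were called higher with single libraries left out, and up to 3 with the GC offset.

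The lipogenic malic enzyme ME1 had 0 counts in each Spautin-1 library and 0 and 2 counts in vehicle libraries. It was under the filter on low counts, and was chosen after its values were seen.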
